A study of Homo sapiens with 54 samples.

Results

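The 35 glycolysis and hypoxia response genes described here were chosen by symbol from the 60642 human gene symbols of the expression table, by what they are known to do and not by a cut on their values. The choice was made with earlier results of these data known. They comprise 15 enzymes of glycolysis and lactate production (HK1, HK2, GPI, PFKL, PFKM, PFKP, ALDOA, ALDOC, TPI1, GAPDH, PGK1, PGAM1, ENO1, PKM and LDHA), 6 transporters and flux regulators (SLC2A1, SLC2A3, SLC16A3, PDK1, PFKFB3 and PFKFB4), 12 further targets of the hypoxia-inducible factors (CA9, CA12, ADM, BNIP3, BNIP3L, EGLN1, EGLN3, ANKRD37, KDM3A, DDIT4, ERO1A and MXI1) and 2 HIF alpha subunits (HIF1A and EPAS1). Of the 35, 34 passed the filter on low values, and SLC2A3 did not.

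RNA-seq was carried out on 54 subcutaneous tumours, each from its own mouse, grown from LNCaP cells (clone FGC), a human prostate cancer line that responds to androgen, in the flank of male NOD-SCID mice, which lack functional T and B cells. At a tumour size of about 200 mm3 the mice were castrated or, for PRE-CX (n = 9), given mock surgery, so that every group other than PRE-CX shared castration. POST-CX tumours (n = 8) were taken 1 week after castration, at the lowest serum prostate-specific antigen (PSA), and CRPC tumours (n = 10) once PSA had returned or the volume reached 1000 mm3. Enzalutamide, an antiandrogen drug, was given by mouth at 10 mg/kg on 5 days a week from the time PSA rose again, with tumours taken at the next PSA minimum (ENZS, n = 12) or after PSA or volume had recurred on the drug (ENZR, n = 15). PRE-CX tumours were taken at 1000 mm3, so treatment, tumour volume and time in the mouse differed together between the groups and cannot be told apart. All groups descend from 1 cell line, and the host keeps its own blood vessels and connective tissue.

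Glycolysis splits glucose into pyruvate in the cytosol, and LDHA turns pyruvate into lactate, which restores the cofactor that GAPDH needs. When oxygen falls, prolyl hydroxylases such as EGLN1 and EGLN3 no longer mark the HIF alpha subunits for destruction, and the stabilised subunit, paired with ARNT, binds a short DNA motif near its target genes, among them most glycolytic enzymes. Prostate epithelium is known for a citrate-secreting metabolism, and androgen signalling is known to promote glucose use in LNCaP cells.

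The core of the HIF motif can be written ACGTG or GCGTG, which read CACGT and CACGC on the other strand. The 250 bases before the transcript start are shown for the 5 members that fell and are given with full statistics in at least 3 of the 4 comparisons with PRE-CX, and for EPAS1, which rose in 2 of them. They come from RefSeq (build GRCh38.p14), read 5′ to 3′ on the strand of the gene, with each match to these motifs in capitals, matches that overlap running together. Where a gene had several starts, the window with the most matches is given, so the number of matches shown is no evidence of anything.
LDHA, chr11:18394313-18394562, plus strand: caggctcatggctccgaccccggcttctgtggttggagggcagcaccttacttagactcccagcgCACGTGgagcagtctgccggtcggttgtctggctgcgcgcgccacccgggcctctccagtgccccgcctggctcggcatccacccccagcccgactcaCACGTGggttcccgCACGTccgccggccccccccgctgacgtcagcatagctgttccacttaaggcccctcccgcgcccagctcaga
HK2, chr2:74834920-74835169, plus strand: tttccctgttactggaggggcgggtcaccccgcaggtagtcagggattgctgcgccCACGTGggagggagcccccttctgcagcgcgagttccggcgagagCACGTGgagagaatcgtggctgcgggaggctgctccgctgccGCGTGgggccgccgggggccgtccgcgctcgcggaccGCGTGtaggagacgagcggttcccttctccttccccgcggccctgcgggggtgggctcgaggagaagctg
PDK1, chr2:172555840-172556089, plus strand: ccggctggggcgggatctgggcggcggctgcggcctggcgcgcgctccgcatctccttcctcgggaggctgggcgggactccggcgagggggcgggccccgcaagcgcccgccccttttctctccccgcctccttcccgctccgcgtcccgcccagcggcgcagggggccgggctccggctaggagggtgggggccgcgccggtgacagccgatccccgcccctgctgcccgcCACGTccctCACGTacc
ANKRD37, chr4:185396591-185396840, plus strand: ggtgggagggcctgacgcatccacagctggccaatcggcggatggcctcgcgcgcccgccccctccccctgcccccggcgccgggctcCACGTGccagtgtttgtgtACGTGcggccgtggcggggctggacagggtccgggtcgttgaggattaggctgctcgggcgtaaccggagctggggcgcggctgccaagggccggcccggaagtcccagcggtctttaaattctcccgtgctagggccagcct
ERO1A, chr14:52695559-52695808, minus strand: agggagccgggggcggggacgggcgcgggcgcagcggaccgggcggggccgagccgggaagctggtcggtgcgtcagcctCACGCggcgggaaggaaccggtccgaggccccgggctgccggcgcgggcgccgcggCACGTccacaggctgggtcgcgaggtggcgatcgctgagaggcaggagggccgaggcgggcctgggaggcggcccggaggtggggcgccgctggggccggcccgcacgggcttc
EPAS1, chr2:46297157-46297406, plus strand: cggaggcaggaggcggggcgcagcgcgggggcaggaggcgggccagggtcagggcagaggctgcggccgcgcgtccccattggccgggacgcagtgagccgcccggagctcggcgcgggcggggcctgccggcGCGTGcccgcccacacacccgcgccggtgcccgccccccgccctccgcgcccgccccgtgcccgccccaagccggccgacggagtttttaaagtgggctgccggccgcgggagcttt
The LDHA window held 5 matches, HK2 6, ANKRD37 3, PDK1 and ERO1A 2 each and EPAS1 1. Of the 35 members, 33 had a window from this source, and some of these had more than 1. At least 1 match was found in 39 of the 63 windows of the members (61.9%) and in 43.2% of all 35116 windows of the same length. Among the HIF targets 12 of 14 windows (85.7%) held a match, and among the enzymes 18 of 35 (51.4%). A match is a string of letters and not a measured binding site.

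The values are TPM, a measure of transcript abundance that accounts for transcript length, of human genes. Reads had been assigned to human and mouse genes together, and the human part made up 82.7% to 97.5% of a tumour's TPM in PRE-CX, 27.9% to 94.4% in POST-CX, 77.1% to 97% in CRPC, 70.8% to 95.5% in ENZS and 12.1% to 94.9% in ENZR. Each tumour was therefore rescaled to the same total of human TPM, and 4 tumours under 70% (POST-CX mouse 91 and mouse 48, ENZR mouse 87 and mouse 103) were also left out as an alternative. On the log2(rescaled TPM + 1) scale the median of all 17593 tested genes was above PRE-CX by 0.16 in POST-CX, 0.08 in CRPC, 0.29 in ENZS and 0.25 in ENZR, so a member with a difference of 0 was below the median gene. The prostate epithelial markers KLK3, HOXB13, KRT8, KRT18, EPCAM and FOLH1 were present in each group, with HOXB13 at 128 ± 14.3 TPM in PRE-CX (SD, n = 9) and 181 ± 71.4 TPM in ENZR (n = 15). The endothelial markers PECAM1, CDH5, KDR and TIE1 were at or near 0, with no tumour above 0.386 TPM, but VWF, the fifth of that list, lay between 1.42 and 7.68 TPM in PRE-CX (median 4.90), between 1.43 and 5.00 TPM in POST-CX (median 3.19), between 0.726 and 4.16 TPM in CRPC (median 1.07), between 0.621 and 7.43 TPM in ENZS (median 1.55) and between 0.0823 and 3.65 TPM in ENZR (median 1.03). Summed over 8 fibroblast and smooth muscle markers the level was 15.9 to 27.1 TPM in PRE-CX, 15.4 to 43.1 in POST-CX, 24.1 to 109 in CRPC, 33.3 to 315 in ENZS and 17.8 to 96.99 in ENZR. Summed over 6 blood and macrophage markers it was at most 2.95 TPM in PRE-CX, 4.27 in POST-CX, 3.63 in CRPC, 11.7 in ENZS and 45.6 in ENZR, with CD68 the highest of the 6 in each group. The 45.6 TPM was in ENZR mouse 87, whose human total was 12.1%, and the next ENZR tumour, mouse 98, had 13.0 TPM. All these markers are human genes, so cells of the mouse host were not measured directly. The part of such cells in the results was not tested, and in bulk tumours fewer cells of a type and less RNA per cell cannot be told apart.

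In the intact mice the enzymes were among the abundant transcripts of these tumours. Together the 15 took 1.24 ± 0.368% of the human TPM in PRE-CX (SD, n = 9), led by GAPDH at 3754 ± 961 TPM, LDHA at 1796 ± 741 TPM, ALDOA at 1339 ± 488 TPM and ENO1 at 1320.1 ± 474 TPM. The lowest enzyme was HK2 at 28.8 ± 18.6 TPM. The 12 HIF targets together took 0.102 ± 0.0459%, most of it BNIP3 (331 ± 189.9 TPM) and BNIP3L (213 ± 73.2 TPM), which encode receptors for the removal of mitochondria. CA9 and ADM were low, at 4.77 ± 4.43 TPM and 0.515 ± 0.266 TPM, and so their log2 differences are understated by the added 1 TPM. In POST-CX the enzymes took 0.693 ± 0.158% (n = 8) and in CRPC 1.05 ± 0.393% (n = 10). Under enzalutamide they took 0.831 ± 0.402% in ENZS (n = 12) and 0.889 ± 0.351% in ENZR (n = 15).

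A week after castration, genes from glucose uptake to lactate export were lower than in intact mice. Of the 34 members tested, 23 fell and 0 rose between POST-CX and PRE-CX (limma, adjusted p under 0.05), where 5.62% of all tested genes were lower and 20.6% higher. Fallen were 12 of 15 enzymes, 5 of 5 transporters and flux regulators and 6 of 12 HIF targets, but neither HIF alpha subunit. The median log2 difference was -0.67 for the enzymes, -1.52 for the transporters and flux regulators and -0.86 for the HIF targets. This comparison set tumours responding to castration against tumours of intact mice, which also differed in tumour volume and time in the mouse.

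LDHA (chromosome 11, 18394563 to 18408425), the lactate dehydrogenase subunit, lay between 939 and 3315 TPM in PRE-CX (median 1557) and between 219.6 and 941 TPM in POST-CX (median 668). In 7 of the 8 POST-CX tumours it was below every PRE-CX tumour. It fell by 1.51 in log2 units (SE 0.42, adjusted p 0.00636 by limma), to a level 2.86-fold lower. HK2 (chromosome 2, 74834127 to 74893359), the inducible hexokinase that traps glucose in the cell, lay between 14.2 and 72.1 TPM in PRE-CX (median 22.2) and between 3.44 and 17.6 TPM in POST-CX (median 8.44). Here too 7 of 8 tumours were below the PRE-CX range and 1 was inside it. HK2 fell by 1.57 in log2 units (SE 0.39, adjusted p 0.00269 by limma). PGK1 (chromosome X, 78104248 to 78129295), which makes the first ATP of the pathway, lay between 396 and 1486 TPM in PRE-CX (median 753) and between 195 and 429.9 TPM in POST-CX (median 313), with a single POST-CX tumour inside the PRE-CX range. It fell by 1.32 in log2 units (SE 0.28, adjusted p 0.00043 by limma). ENO1, the enolase, was below the range of PRE-CX in 8 of 8 tumours. The other fallen enzymes, from HK1 at -0.42 to PFKP at -1.09, were GPI, ALDOA, ALDOC, TPI1, GAPDH and PGAM1. PFKL, PFKM and PKM did not pass, with log2 differences of -0.03, 0.28 and -0.52, although PKM, the pyruvate kinase, was below the PRE-CX median in 8 of 8 tumours.

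Of the genes that steer carbon around the pathway, SLC16A3 (chromosome 17, 82217934 to 82240086), the lactate exporter MCT4, lay between 3.50 and 19.2 TPM in PRE-CX (median 7.11) and between 0.318 and 11.6 TPM in POST-CX (median 1.49). The groups overlapped, with 6 of 8 POST-CX tumours below the PRE-CX range. SLC16A3 fell by 1.65 in log2 units (SE 0.50, adjusted p 0.0109 by limma), and did not pass without the 4 tumours of low human total (limma adjusted p 0.062). PDK1 (chromosome 2, 172555373 to 172724312), a kinase that holds pyruvate back from the mitochondrial dehydrogenase, lay between 20.3 and 86.2 TPM in PRE-CX (median 37.9) and between 5.49 and 26.4 TPM in POST-CX (median 15.3). All but 1 of the POST-CX tumours were under the PRE-CX range, and PDK1 fell by 1.53 in log2 units (SE 0.41, adjusted p 0.00442 by limma). PFKFB4 (chromosome 3, 48517684 to 48563136), which sets the level of the activator of phosphofructokinase, lay between 14.3 and 88.1 TPM in PRE-CX (median 24.1) and between 6.85 and 15.8 TPM in POST-CX (median 8.88). It fell by 1.52 in log2 units (SE 0.36, adjusted p 0.00168 by limma), again with 7 of 8 tumours below the range. PFKFB3, its paralog, differed by -1.41 and SLC2A1, the glucose transporter GLUT1, by -0.90, and both passed.

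Among the HIF targets ERO1A (chromosome 14, 52639915 to 52695558), an oxidase that forms disulfide bonds in the endoplasmic reticulum, moved most. It lay between 27.7 and 173 TPM in PRE-CX (median 65.2) and between 10.2 and 23.5 TPM in POST-CX (median 16.5), and no POST-CX tumour reached the lowest PRE-CX tumour. ERO1A fell by 2.03 in log2 units (SE 0.39, adjusted p 0.000148 by limma), to a level 4.09-fold lower. ANKRD37 (chromosome 4, 185396841 to 185400723), a small ankyrin repeat protein whose gene is a known HIF target, lay between 24.2 and 109 TPM in PRE-CX (median 41.7) and between 7.65 and 31.6 TPM in POST-CX (median 14.8). It fell by 1.52 in log2 units (SE 0.32, adjusted p 0.000352 by limma), with 7 of 8 tumours below the range. BNIP3 (chromosome 10, 131967684 to 131981923) lay between 146 and 761 TPM in PRE-CX (median 253) and between 84.95 and 149.6 TPM in POST-CX (median 106) and fell by 1.40 in log2 units (SE 0.29, adjusted p 0.000366 by limma). It too was below the range in 7 of 8 tumours, and its 39 pseudogenes, to which reads can be misassigned, took a median of 5.85% of their summed TPM. DDIT4, an inhibitor of mTORC1, KDM3A, a histone demethylase, and EGLN3 also fell, with log2 differences of -0.96, -0.91 and -0.81. The other 6 did not pass: CA9, a carbonic anhydrase that exports acid, differed by -1.29, its paralog CA12 by -0.02, BNIP3L by -0.53, EGLN1 by -0.29, MXI1, a MYC antagonist, by -0.07, and ADM, the peptide adrenomedullin, by 0.02.

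The 2 HIF alpha subunits did not pass a week after castration. HIF1A (chromosome 14, 61695513 to 61748258) lay between 54.5 and 141 TPM in PRE-CX (median 89.1) and between 62.00 and 89.7 TPM in POST-CX (median 75.99), with all POST-CX tumours inside the PRE-CX range and a difference of -0.18 (SE 0.17, adjusted p 0.432 by limma). EPAS1 (chromosome 2, 46297407 to 46386697), which encodes HIF-2 alpha, lay between 0.484 and 2.11 TPM in PRE-CX (median 0.867) and between 0.540 and 3.23 TPM in POST-CX (median 1.66) and differed by 0.37 (SE 0.25, adjusted p 0.262 by limma). Of the 16 other glycolysis genes tested 2 rose and 3 fell, with MPC2, a subunit of the mitochondrial pyruvate carrier, at -1.24 and SLC16A1, the lactate transporter MCT1, at -0.88. Of the 26 other HIF pathway genes 3 rose and 16 fell, with ANGPT2, an angiopoietin, at -4.06 and LOX, a collagen crosslinking oxidase, at -4.02. Of the 34 members, 16 fell when the 4 tumours of low human total were left out, where 3.79% of all genes were lower and 21% higher. With the TPM as deposited 15 of 33 fell, where 2.67% of all genes were lower and 1.66% higher. HK1, GPI, ALDOA, TPI1, GAPDH and DDIT4 were among those that did not pass in either case.

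**Figure D1:**
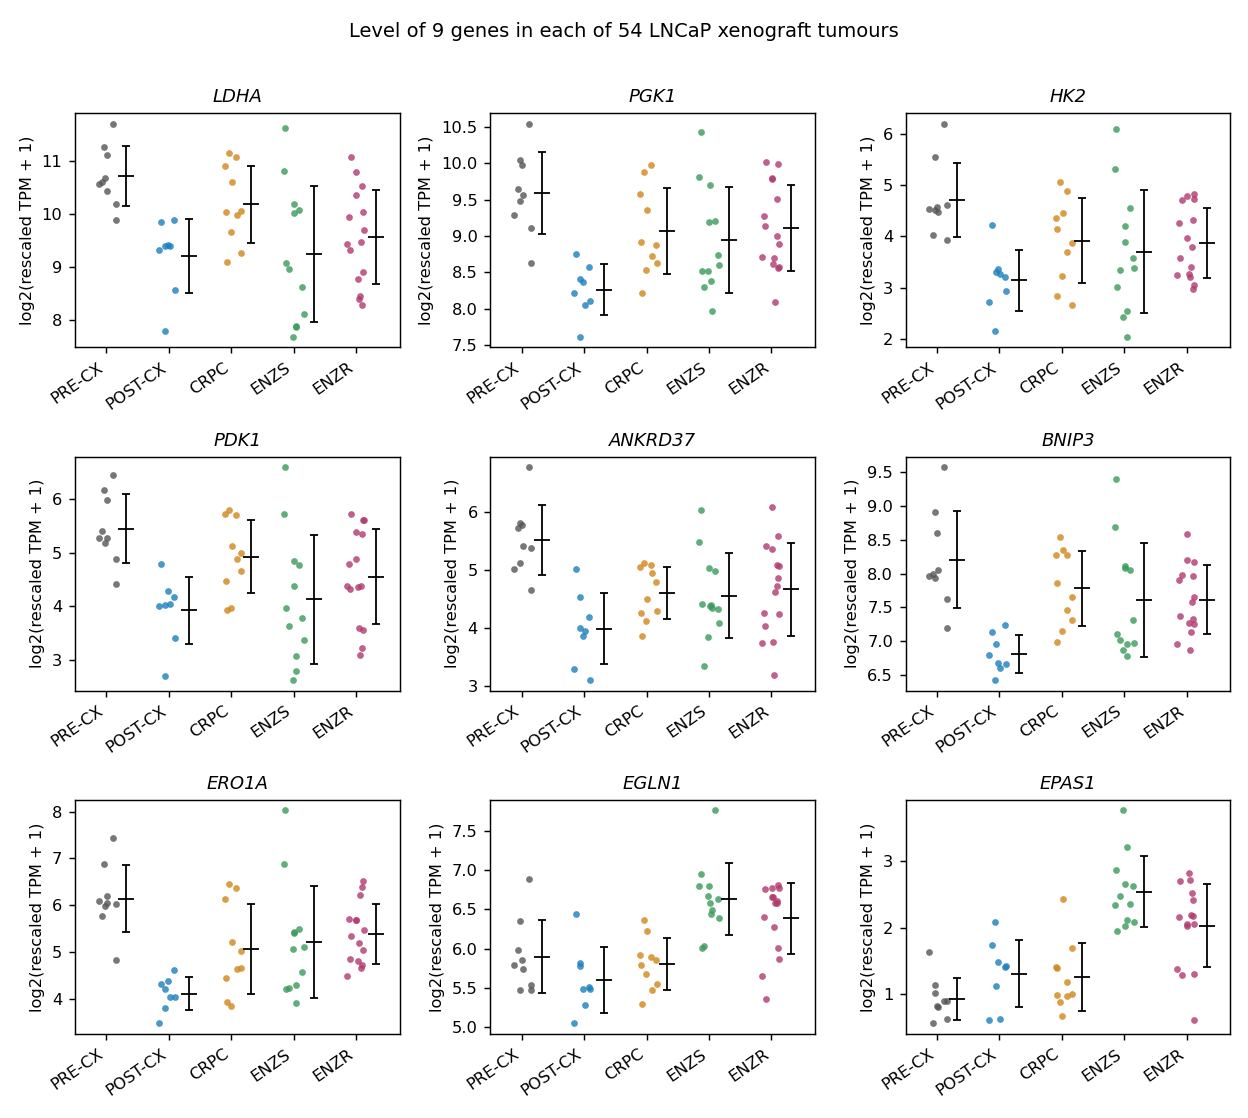
Level of 9 members in each tumour, as log2(rescaled TPM + 1) on the vertical axis, by group on the horizontal axis. Each point is 1 tumour and the bars beside them give the group mean and SD. In POST-CX, LDHA, PGK1, HK2, PDK1, ANKRD37 and BNIP3 were below the lowest PRE-CX tumour in 7 of 8 tumours and ERO1A in 8 of 8, and all 12 ENZS tumours had more EPAS1 than the highest PRE-CX tumour.

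In castration-resistant tumours fewer members stood apart from the intact group. Of 34 tested, 2 fell and 0 rose between CRPC and PRE-CX, or 5.88% lower against 5.87% of all tested genes, with 14.2% of all genes higher. The PRE-CX tumours are shared with the comparison above. Both were HIF targets, and none of the 15 enzymes passed in the limma fit, where 3 enzymes had an unadjusted p under 0.05. The median log2 difference was -0.26 for the enzymes, -0.75 for the transporters and flux regulators and -0.31 for the HIF targets, and 30 of 34 members were below 0.

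ANKRD37 lay between 13.6 and 33.8 TPM in CRPC (median 24.3). That was under the PRE-CX median in 10 of 10 tumours and under the whole PRE-CX range in 5, and ANKRD37 fell by 0.91 in log2 units (SE 0.30, adjusted p 0.0232 by limma). ERO1A lay between 13.4 and 87.1 TPM in CRPC (median 27.9), with 5 of 10 tumours below the PRE-CX range and 3 above its median, and fell by 1.07 in log2 units (SE 0.37, adjusted p 0.0341 by limma). With the TPM as deposited neither passed, at limma adjusted p 0.127 and 0.11, and with weights for each tumour 12 of 34 members passed, 11 lower and 1 higher, where 10.3% of all genes were lower and 24.9% higher. HIF1A lay between 50.7 and 84.6 TPM in CRPC (median 67.4) and EPAS1 between 0.597 and 4.38 TPM in CRPC (median 1.14). Both overlapped PRE-CX and did not pass, with differences of -0.34 (SE 0.16, adjusted p 0.122 by limma) and 0.33 (SE 0.24, adjusted p 0.345 by limma). Among the other glycolysis genes 2 of 16 rose and 5 fell, led by SLC16A1 at -0.84 and MPC2 at -0.78, and among the other HIF pathway genes 1 of 26 rose and 6 fell, led by LOX at -4.39 and ANGPT2 at -4.25.

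Set directly against POST-CX, 0 of 34 members passed in CRPC in either direction, where limma called 0.00568% of all tested genes higher and 0.0568% lower. At an unadjusted p under 0.05 there were 15 members, all of them higher in CRPC, with the share of all genes at that level not given here. They were 10 enzymes, 3 transporters and flux regulators and 2 HIF targets, and the role medians were 0.50, 0.65 and 0.35. The fit limited to these 2 groups called 3 members higher (ALDOC, BNIP3 and SLC2A1), where 0.193% of all genes were higher and 0.313% lower. The fit with tumour weights called 6 higher, where 2.47% of all genes were higher and 9.04% lower. ALDOC, the brain-type aldolase, named here after its values were seen, lay between 27.1 and 63.5 TPM in POST-CX (median 48.6) and between 65.4 and 155 TPM in CRPC (median 93.1). The groups did not overlap, and the difference was 1.08 (SE 0.27, adjusted p 0.0866 by limma). HIF1A differed by -0.16 (SE 0.16, adjusted p 0.718 by limma) and EPAS1 by -0.05 (SE 0.24, adjusted p 0.956 by limma). None of the 16 other glycolysis genes and none of the 26 other HIF pathway genes passed in this limma fit, with 5 and 7 at an unadjusted p under 0.05.

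**Figure D2:**
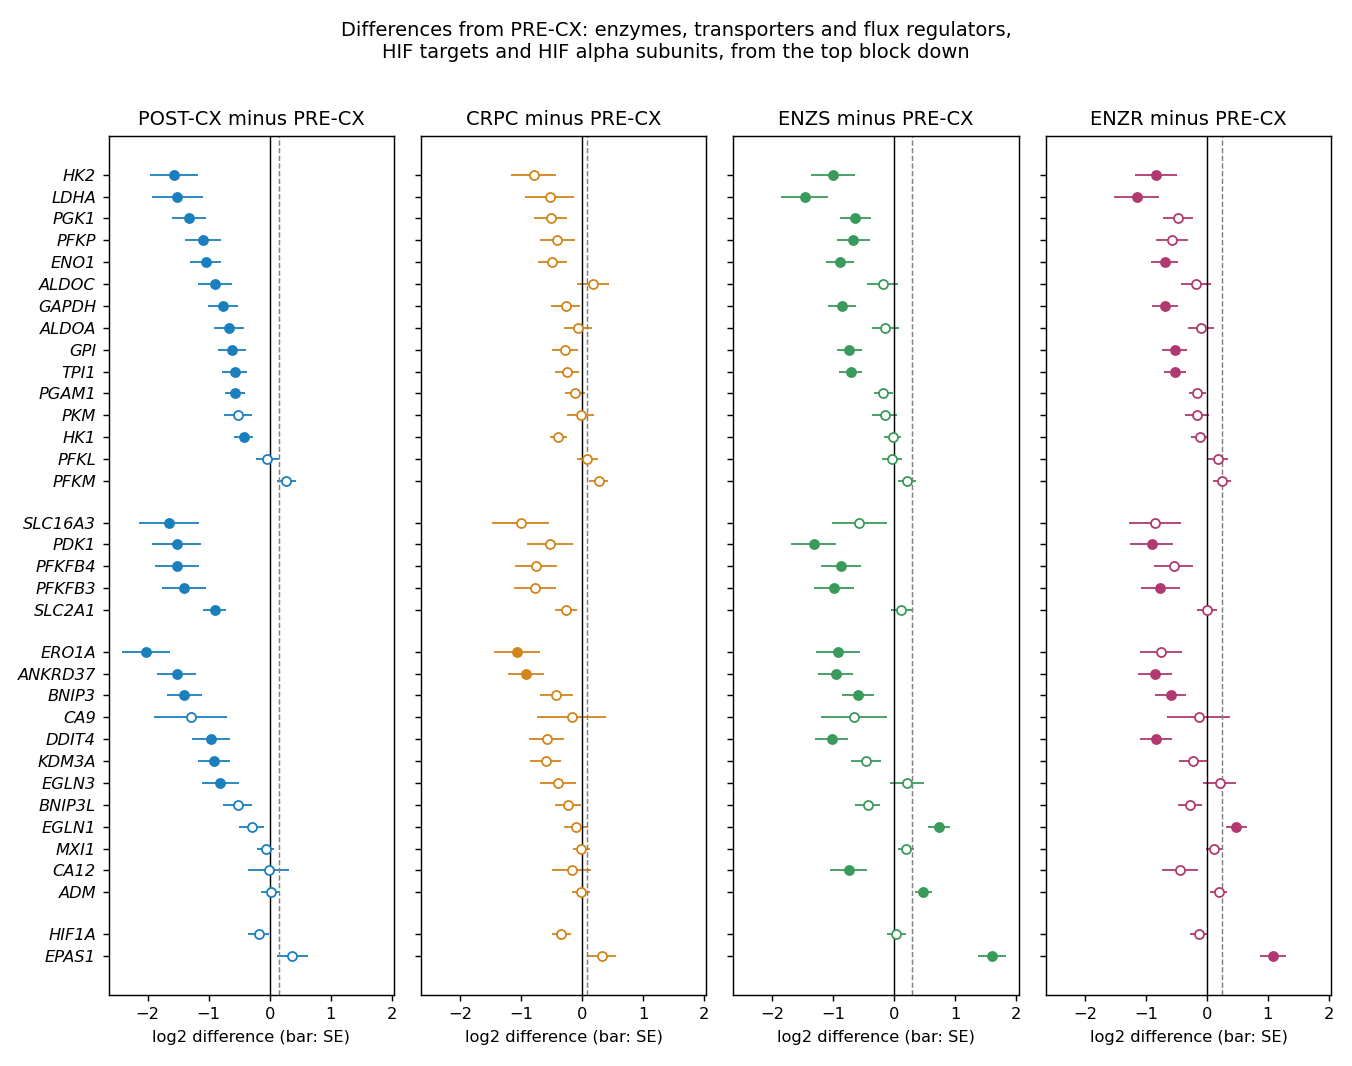
Difference of each castrated group from PRE-CX for the 34 tested members, as log2(rescaled TPM + 1) on the horizontal axis with 1 row for each gene and bars of 1 SE. Filled points passed at a limma adjusted p under 0.05, and the dashed line is the median of all tested genes. Members fell in 23 cases in POST-CX, 2 in CRPC, 16 in ENZS and 11 in ENZR, and EPAS1 rose in ENZS and ENZR.

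In tumours responding to enzalutamide, members of the pathway fell and 3 other members rose. Between ENZS and PRE-CX, 16 of 34 members fell and 3 rose, where 13.6% of all tested genes were lower and 47.5% higher. Fallen were 8 of 15 enzymes, 3 of 5 transporters and flux regulators and 5 of 12 HIF targets, while the HIF targets EGLN1 and ADM and the subunit EPAS1 rose. The median log2 difference was -0.64 for the enzymes and -0.53 for the HIF targets, and again the PRE-CX tumours are those of the comparisons above.

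LDHA lay between 205 and 3124 TPM in ENZS (median 516). The highest of these tumours was near the top of the PRE-CX range, yet 7 of 12 were below that range. LDHA fell by 1.47 in log2 units (SE 0.38, adjusted p 0.000867 by limma), to a level 2.77-fold lower. HK2 lay between 3.13 and 67.6 TPM in ENZS (median 10.2), with 8 of 12 tumours below the PRE-CX range, and fell by 1.01 in log2 units (SE 0.36, adjusted p 0.0129 by limma). ENO1 (chromosome 1, 8861000 to 8878686) lay between 789.7 and 2336 TPM in PRE-CX (median 1177) and between 357 and 1778 TPM in ENZS (median 560.2), also with 8 of 12 tumours below the range. It fell by 0.90 in log2 units (SE 0.23, adjusted p 0.00077 by limma). The other fallen enzymes were GPI, PFKP, TPI1, GAPDH and PGK1, with log2 differences from -0.64 to -0.86. HK1, PFKL, PFKM, ALDOA, ALDOC, PGAM1 and PKM did not pass, with differences between -0.19 and 0.21.

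PDK1 lay between 5.17 and 95.7 TPM in ENZS (median 13.7) and fell by 1.32 in log2 units (SE 0.37, adjusted p 0.00184 by limma). It was below the range of PRE-CX in 8 of 12 tumours and above it in 1. PFKFB3 (chromosome 10, 6144921 to 6326637) lay between 8.98 and 57.8 TPM in PRE-CX (median 16.1) and between 4.57 and 42.3 TPM in ENZS (median 7.42) and fell by 0.99 in log2 units (SE 0.33, adjusted p 0.00845 by limma). PFKFB4 lay between 6.96 and 45.9 TPM in ENZS (median 11.4) and fell by 0.88 in log2 units (SE 0.33, adjusted p 0.0195 by limma). For both paralogs 7 of 12 tumours were below the PRE-CX range. SLC2A1 and SLC16A3 did not pass, with differences of 0.11 and -0.58, and that of SLC2A1 was -0.18 once each tumour was centred on its median gene.

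DDIT4 (chromosome 10, 72273924 to 72276036) lay between 59.9 and 209 TPM in PRE-CX (median 75.4) and between 23.5 and 159 TPM in ENZS (median 34.4). It was below the range of PRE-CX in 9 of 12 tumours and fell by 1.03 in log2 units (SE 0.28, adjusted p 0.00124 by limma). ANKRD37 lay between 9.16 and 65.1 TPM in ENZS (median 19.97) and fell by 0.96 in log2 units (SE 0.29, adjusted p 0.00338 by limma). ERO1A lay between 14.04 and 259 TPM in ENZS (median 32.9), a range that reached past PRE-CX at its top, and fell by 0.92 in log2 units (SE 0.36, adjusted p 0.0225 by limma). In the fit of these 2 groups alone ERO1A did not pass (limma adjusted p 0.0542). CA12 and BNIP3 fell as well, by 0.75 and 0.59. CA9, BNIP3L, EGLN3, KDM3A and MXI1 did not pass, with differences between -0.66 and 0.20.

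EGLN1 (chromosome 1, 231363756 to 231422287), the main oxygen sensor of the HIF pathway, lay between 43.2 and 118 TPM in PRE-CX (median 54.1) and between 63.4 and 216 TPM in ENZS (median 96.5). Every ENZS tumour was above the PRE-CX median and 2 of 12 were above the whole range. EGLN1 rose by 0.73 in log2 units (SE 0.19, adjusted p 0.000636 by limma), and it also passed after centring. ADM (chromosome 11, 10305073 to 10307397) lay between 0.263 and 1.07 TPM in PRE-CX (median 0.458) and between 0.151 and 3.69 TPM in ENZS (median 1.04) and rose by 0.47 in log2 units (SE 0.14, adjusted p 0.00389 by limma). It was above the range of PRE-CX in 5 of 12 tumours at a level near 1 TPM, and did not pass after centring on the median gene (limma adjusted p 0.246). EPAS1 lay between 2.87 and 12.5 TPM in ENZS (median 4.34). All 12 tumours were above the PRE-CX range, and EPAS1 rose by 1.60 in log2 units (SE 0.23, adjusted p 4.47e-08 by limma), to a level 3.03-fold higher on this scale. HIF1A lay between 53.4 and 137 TPM in ENZS (median 93.97), across the PRE-CX range, and differed by 0.03 (SE 0.15, adjusted p 0.869 by limma). The tumour with the highest EPAS1 was ENZS mouse 80, which also had the highest fibroblast and smooth muscle sum, 315 TPM. The summed level of the 5 endothelial markers, nearly all VWF, was 1.52 to 7.69 TPM in PRE-CX and 0.664 to 7.51 in ENZS. Both sums are of human genes and do not directly measure the vessels and connective tissue of the mouse host. The part of such tissue in the EPAS1, EGLN1 and ADM values was not tested.

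Of the 16 other glycolysis genes 4 rose and 5 fell in ENZS, with the pyruvate carrier subunits MPC2 at -1.12 and MPC1 at 1.08. Of the 26 other HIF pathway genes 7 rose and 11 fell, with LOX at -4.57 and ANGPT2 at -3.65. With the TPM as deposited 11 of 33 members passed, 2 higher and 9 lower, where 30.3% of all genes were higher and 8.18% lower. After centring 22 of 34 did, 2 higher and 20 lower, where 26.6% of all genes were higher and 28.3% lower.

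Tumours that had recurred on enzalutamide were set against the same PRE-CX tumours. Between ENZR and PRE-CX, 11 of 34 members fell and 2 rose, where 13.8% of all tested genes were lower and 44.6% higher. Fallen were 6 of 15 enzymes, 2 of 5 transporters and flux regulators and 3 of 12 HIF targets, and EGLN1 and EPAS1 rose. Centring each tumour on its median gene moved the split to 1 higher and 21 lower, where 27.7% of all genes were lower and 24.2% higher.

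LDHA lay between 308 and 2139.6 TPM in ENZR (median 706). It was below the range of PRE-CX in 9 of 15 tumours and fell by 1.15 in log2 units (SE 0.37, adjusted p 0.00636 by limma). HK2 lay between 6.85 and 27.5 TPM in ENZR (median 12.8) and fell by 0.84 in log2 units (SE 0.34, adjusted p 0.0322 by limma). ENO1 lay between 429 and 1377 TPM in ENZR (median 706) and fell by 0.69 in log2 units (SE 0.22, adjusted p 0.00651 by limma). For HK2 and for ENO1, 8 of 15 tumours were below the PRE-CX range, and HK2 did not pass without the tumours of low human total (limma adjusted p 0.0653). GPI, TPI1 and GAPDH were the other fallen enzymes, with differences of -0.53, -0.52 and -0.68, while PGK1 at -0.48 and PFKP at -0.57 did not pass. The remaining 7 enzymes lay between -0.17 and 0.25.

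PDK1 lay between 7.49 and 51.6 TPM in ENZR (median 19.7) and fell by 0.90 in log2 units (SE 0.35, adjusted p 0.0256 by limma). PFKFB3 lay between 4.22 and 28.9 TPM in ENZR (median 10.95) and fell by 0.76 in log2 units (SE 0.32, adjusted p 0.0343 by limma). For both genes the ENZR tumours overlapped PRE-CX only in part. The ENZR median of PDK1 lay under the lowest PRE-CX tumour, which had 20.3 TPM. For PFKFB3 the ENZR median lay above the lowest PRE-CX tumour, which had 8.98 TPM. Without the tumours of low human total neither gene passed, at limma adjusted p 0.0741 and 0.0841. SLC16A3, PFKFB4 and SLC2A1 did not pass, with differences of -0.85, -0.55 and 0.01.

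ANKRD37 lay between 8.14 and 67.3 TPM in ENZR (median 25.5) and fell by 0.85 in log2 units (SE 0.27, adjusted p 0.00711 by limma). DDIT4 lay between 20.9 and 126 TPM in ENZR (median 54.2), below the PRE-CX median in 14 of 15 tumours, and fell by 0.83 in log2 units (SE 0.26, adjusted p 0.00647 by limma). BNIP3 lay between 116 and 385 TPM in ENZR (median 191) and fell by 0.59 in log2 units (SE 0.25, adjusted p 0.04 by limma), and did not pass without the tumours of low human total (limma adjusted p 0.0965). EGLN1 lay between 40.01 and 111 TPM in ENZR (median 95.01), above the PRE-CX median in 13 of 15 tumours but never above its range. It rose by 0.49 in log2 units (SE 0.18, adjusted p 0.0165 by limma), and did not pass after centring on the median gene (limma adjusted p 0.269) or as deposited (limma adjusted p 0.489). EPAS1 lay between 0.537 and 6.02 TPM in ENZR (median 3.48). With 11 of 15 tumours above the PRE-CX range, it rose by 1.09 in log2 units (SE 0.22, adjusted p 3.16e-05 by limma). HIF1A lay between 51.3 and 138 TPM in ENZR (median 80.96) and differed by -0.13 (SE 0.14, adjusted p 0.465 by limma). The other 8 HIF targets did not pass, from ERO1A at -0.75 to EGLN3 at 0.21. Other glycolysis genes rose in 4 and fell in 6 of 16 cases, with MPC2 at -1.28 and MPC1 at 0.96, and other HIF pathway genes rose in 8 and fell in 10 of 26, with LOX at -4.71 and ANGPT2 at -4.38.

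Recurrence on enzalutamide was compared with response to it directly. Between ENZR and ENZS limma called 0 of 34 members, as it called 0% of all tested genes higher and 0% lower. ADM and EPAS1 had an unadjusted p under 0.05, with differences of -0.28 (SE 0.13, adjusted p 0.455 by limma) and -0.51 (SE 0.20, adjusted p 0.405 by limma), both lower in ENZR. HIF1A differed by -0.16 (SE 0.13, adjusted p 0.726 by limma). Role medians were 0.16 for the enzymes, 0.23 for the transporters and flux regulators and 0.14 for the HIF targets. Among the other glycolysis genes 0 of 16 passed, with 3 at an unadjusted p under 0.05, and among the other HIF pathway genes 0 of 26 passed, with 0 at that level. The step from response to recurrence on the drug was also set against the step from POST-CX to CRPC. No member passed that test of the difference (limma, lowest adjusted p 0.148, 4 members at an unadjusted p under 0.05), where 0.199% of all tested genes did. The member with that lowest value was SLC2A1, which differed by -0.10 between ENZR and ENZS and by 0.64 between CRPC and POST-CX on the log2 scale. The first step less the second was -0.75 (SE 0.24).

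Enzalutamide response was also set against castration resistance without the drug. Between ENZS and CRPC, 5 of 34 members rose and 3 fell, where 31.4% of all tested genes were higher and 6.41% lower. HK1 was the 1 risen enzyme, LDHA, GAPDH and TPI1 were the 3 fallen ones, and the risen others were EGLN1, ADM, HIF1A and EPAS1. The split depended on the scaling: 2 members were higher and 7 lower after centring each tumour on its median gene, where 11.2% of all genes were higher and 13.9% lower. With the TPM as deposited 2 members were higher and 0 lower, where 6.21% of all genes were higher and 2.71% lower.

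EPAS1 was higher in ENZS than the CRPC median in 12 of 12 tumours and rose by 1.27 in log2 units (SE 0.22, adjusted p 3.02e-05 by limma). EGLN1 lay between 38.3 and 81.7 TPM in CRPC (median 55.5), was above that range in 10 of 12 ENZS tumours and rose by 0.83 in log2 units (SE 0.18, adjusted p 0.000473 by limma). These 2 passed under each of the 3 scalings. ADM lay between 0.317 and 0.649 TPM in CRPC (median 0.495) and was above that range in 10 of 12 ENZS tumours. It rose by 0.49 in log2 units (SE 0.14, adjusted p 0.00522 by limma), and did not pass after centring (limma adjusted p 0.0888). HIF1A was above the CRPC range in 7 of 12 ENZS tumours and rose by 0.37 in log2 units (SE 0.15, adjusted p 0.0417 by limma). HK1 (chromosome 10, 69270000 to 69401882), the constitutive hexokinase, lay between 24.3 and 62.6 TPM in CRPC (median 49.3) and between 42.4 and 75.00 TPM in ENZS (median 60.97). It was above the CRPC range in 6 of 12 ENZS tumours and rose by 0.36 in log2 units (SE 0.14, adjusted p 0.0347 by limma). Neither passed as deposited or after centring, with limma adjusted p from 0.304 to 0.528. LDHA lay between 547 and 2253 TPM in CRPC (median 1053) and fell by 0.94 in log2 units (SE 0.37, adjusted p 0.0401 by limma). GAPDH (chromosome 12, 6534517 to 6538371), which yields the NADH of glycolysis, lay between 1808 and 5886 TPM in CRPC (median 2855) and between 1221 and 4193 TPM in ENZS (median 1723) and fell by 0.59 in log2 units (SE 0.22, adjusted p 0.0297 by limma). TPI1 (chromosome 12, 6867420 to 6870948), the triose phosphate isomerase, lay between 622 and 1460.1 TPM in CRPC (median 883) and between 414 and 1277 TPM in ENZS (median 603) and fell by 0.48 in log2 units (SE 0.18, adjusted p 0.0364 by limma). In the fit of only these 2 groups LDHA did not pass (limma adjusted p 0.0732). For these 3 enzymes 6 or 7 of 12 tumours were below the CRPC range, and as deposited none of the 3 passed, with limma adjusted p from 0.167 to 0.29. Of the other glycolysis genes 3 of 16 rose and 3 fell, with LDHB, the paralog of LDHA, at -0.76 and MPC1 at 0.53. Of the other HIF pathway genes 4 of 26 rose and 0 fell, with the collagen prolyl hydroxylase P4HA2 at 0.88 and ARNT2, a partner of the HIF alpha subunits, at 0.68.

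Some gene families with several isoforms shifted in their makeup. Over 5 families and 7 comparisons, 35 shares of summed TPM were tested by permuting tumours, two-sided, with Benjamini-Hochberg adjustment, and 11 passed. Among the 11 were the shares of SLC2A3, a transporter of uncertain level described below, in each castrated group against PRE-CX. PFKP made up 31.98% ± 8.69 of the phosphofructokinase transcripts in the 9 PRE-CX tumours (± SD) and 16.2% ± 2.05 in the 8 of POST-CX. In 7 of 8 tumours the share was below the PRE-CX range (exact permutation p 0.000247, adjusted p 0.00144). It was 23.5% ± 6.00 in CRPC, above POST-CX (exact permutation p 0.00361, adjusted p 0.0153), and 21.7% ± 8.25 in ENZS and 21.4% ± 7.17 in ENZR, both below PRE-CX (exact permutation p 0.0133, adjusted p 0.0423 and exact permutation p 0.00394, adjusted p 0.0153). HK2 made up 30.4% ± 10.7 of HK1 and HK2 in PRE-CX and 15.6% ± 5.91 in POST-CX (exact permutation p 0.00337, adjusted p 0.0153), the only HK2 share of the 7 to pass. ALDOC made up 7.54% ± 0.539 of the aldolases in CRPC, above PRE-CX at 6.44% ± 0.890 (exact permutation p 0.00557, adjusted p 0.0195) and above POST-CX at 5.52% ± 0.839 (exact permutation p 6.86e-05, adjusted p 0.000576). The share of PFKFB4 in PFKFB3 and PFKFB4 passed in none of the 7 comparisons and had group means from 57.8% ± 5.14 to 63.1% ± 5.70.

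SLC2A3, the high-affinity glucose transporter GLUT3, was measured at a low level in intact mice and close to 0 in every castrated group. It lay between 0.639 and 2.37 TPM in PRE-CX (median 1.22). In POST-CX it was listed at 0 in 5 of 8 tumours and reached 0.0744 TPM at most, in CRPC it was at 0 in 5 of 10 with a highest level of 0.103, in ENZS at 0 in 8 of 12 with 0.0856, and in ENZR at 0 in 11 of 15 with 0.148 TPM. No castrated tumour reached the lowest PRE-CX tumour. As a share of SLC2A1 and SLC2A3 it was 2.37% ± 0.837 in PRE-CX, and the 4 castrated groups had means between 0.0413% and 0.0546%, each below PRE-CX (exact permutation, adjusted p from 2.68e-05 to 0.000576). SLC2A3 has a near-identical paralog in SLC2A14, between which reads can be split, and its 3 pseudogenes took a median of 66.7% and up to 100% of their summed TPM over the tumours, so its levels are uncertain. Its low level kept it out of the fit across genes.

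**Figure D3:**
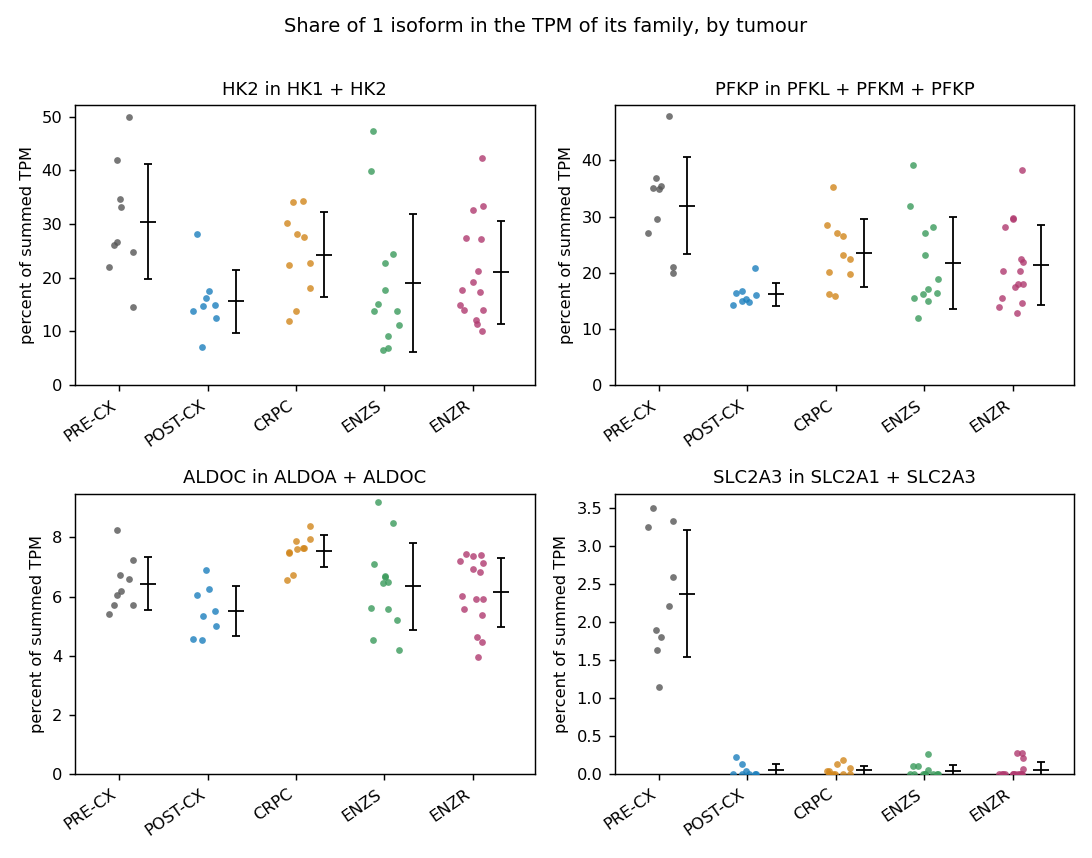
Share of HK2, PFKP, ALDOC and SLC2A3 in the summed TPM of their families, in percent on the vertical axis, by group. Each point is 1 tumour, with the group mean and SD beside the points. PFKP was below the range of PRE-CX in 7 of 8 POST-CX tumours, and SLC2A3 was below it in each tumour of the 4 castrated groups.

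Tumours of the same group differed widely in these genes. The SD between tumours on the log2 scale had a median over the 15 enzymes of 0.38 in PRE-CX, 0.35 in POST-CX, 0.54 in CRPC, 0.62 in ENZS and 0.54 in ENZR, where the median over all tested genes was 0.30, 0.25, 0.30, 0.30 and 0.37. For the 12 HIF targets it was 0.60, 0.41, 0.50, 0.74 and 0.52. The median over all tested genes takes in low genes, whose SD on this scale is reduced by the added 1 TPM. No SD of genes at a similar level is given here. The enzyme with the largest SD was HK2 in PRE-CX and CRPC and LDHA in POST-CX, ENZS and ENZR, where LDHA had 0.70, 1.28 and 0.89. CA9 had the largest SD of the HIF targets in each of the 5 groups, from 0.77 in POST-CX to 1.496 in ENZR. PGAM1, HK1 and PFKM were the enzymes with the smallest SD, at most 0.33 in the groups where each was lowest. PRE-CX mouse 62 and ENZS mouse 45 stood at the top of their groups for most members, and POST-CX mouse 91, with a human total of 27.9%, was lowest for 14 of the 15 enzymes.

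Each group has a widest gap between neighbouring tumours, and where it lay is given as a description. In ENZS the mean log2 level of the 15 enzymes was between 7.21 and 7.63 in 7 tumours and between 8.16 and 8.92 in the other 5. For the HIF targets, 7 tumours were between 4.46 and 4.69 and 5 between 5.199 and 6.10, and the upper 5 were the same tumours. These gaps were 0.53 and 0.51. In PRE-CX the widest gaps, 0.44 and 0.55, set mouse 62 alone above the rest in both measures. In POST-CX the enzyme gap of 0.49 set mouse 91 alone below the rest, and the HIF target gap of 0.22 set 2 tumours above. In CRPC the gaps of 0.32 and 0.39 set 2 and 3 tumours above, with 2 in both, and in ENZR those of 0.39 and 0.21 set 2 and 6 tumours above, with 2 in both.

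**Figure D4:**
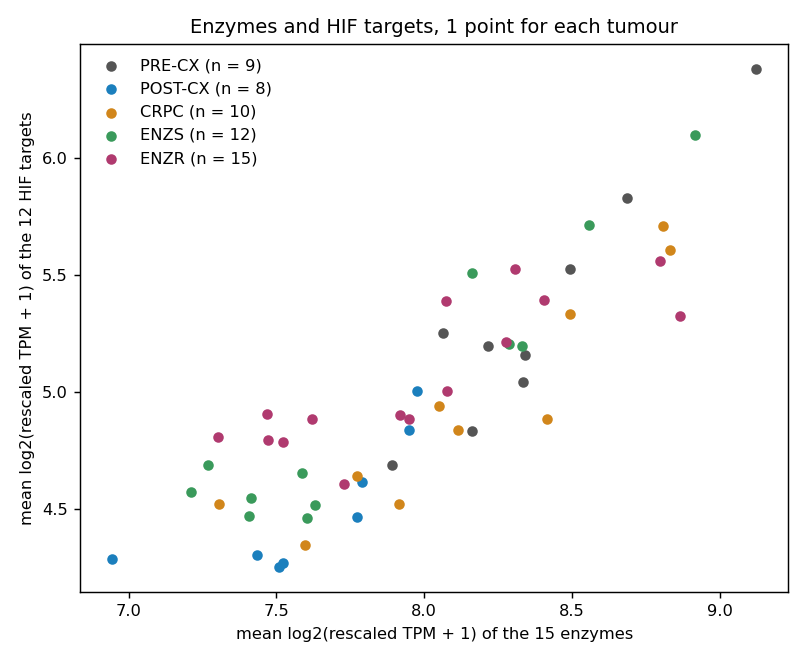
Mean log2(rescaled TPM + 1) of the 15 enzymes on the horizontal axis and of the 12 HIF targets on the vertical axis, with 1 point for each of the 54 tumours coloured by group. The ENZS tumours form a lower set of 7 and an upper set of 5, and the POST-CX tumours lie at the lower left, with enzyme means from 6.95 to 7.98.

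The spread itself was tested with limma on the distance of each tumour from its group mean. MXI1 (chromosome 10, 110207605 to 110287365) was the only member to pass in any of the 5 comparisons made. Its SD was 0.52 in PRE-CX and 0.19 in ENZR, a mean distance smaller by 0.28 in ENZR (difference -0.28, SE 0.08, limma adjusted p 0.0287). That is 1 of 34 members, where 2.57% of all tested genes passed between ENZR and PRE-CX. MXI1 did not pass with the TPM as deposited or with a pseudocount of 0.1 TPM, and 2 members passed without the tumours of low human total. None of the 34 passed between POST-CX and PRE-CX (0.199% of all tested genes), CRPC and PRE-CX (0.199%), ENZS and PRE-CX (0.949%) or ENZR and ENZS (0.131%). At an unadjusted p under 0.05 there were 5, 4, 5 and 2 members in these limma tests, with the share of all genes at that level not given here. The wider spread of LDHA in ENZS than in PRE-CX, at SDs of 1.28 and 0.56, had an adjusted p of 0.166.

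**Figure D5:**
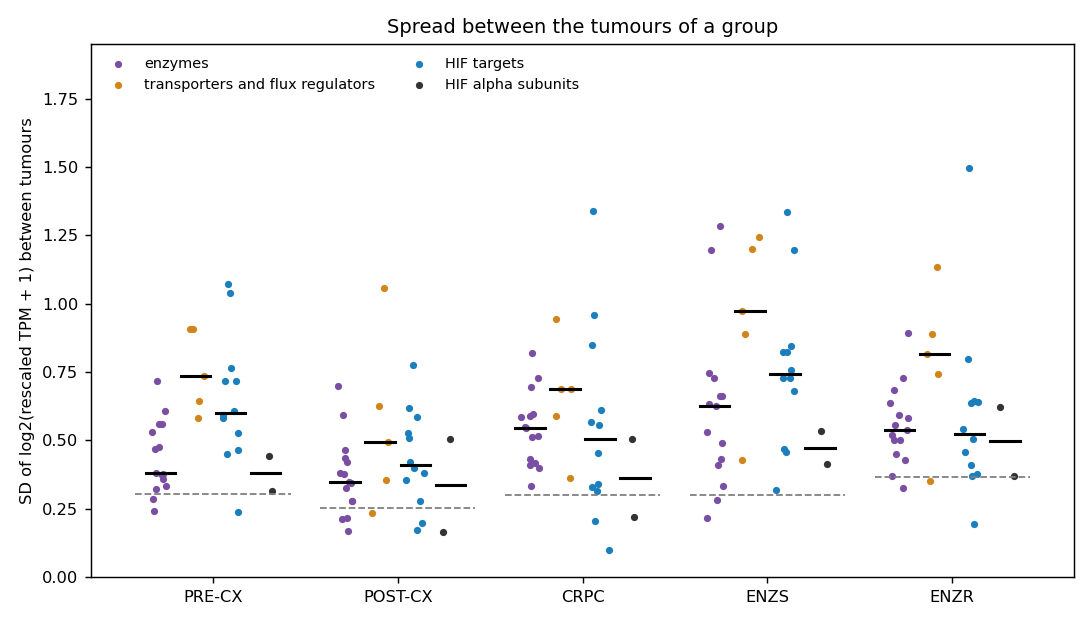
SD of log2(rescaled TPM + 1) between the tumours of a group, on the vertical axis, with 1 point for each tested member, by group and role. Black bars are the role medians and the dashed line is the median over all 17593 tested genes. The enzyme median was 0.62 in ENZS and 0.38 in PRE-CX, above the median of all genes in both.

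PGK1 was related to 8 chosen members (LDHA, ALDOA, GPI, PKM, BNIP3, ANKRD37, EGLN3 and ADM) across the tumours of each of the 5 groups, 40 relations in all, with Benjamini-Hochberg adjustment. No relation was computed for any other gene. Because the ENZS tumours lay in sets of 7 and 5, no coefficient is given for them, and of the 32 relations in the other groups 25 passed for Pearson's r and 24 for Spearman's rho. With BNIP3 the relation was positive in PRE-CX (Pearson's r 0.97, permutation p 1.93e-05, adjusted p 0.000133, Spearman's rho 0.97, permutation p 0.000165, adjusted p 0.000945, n = 9) and in ENZR (Pearson's r 0.87, permutation p 9e-05, adjusted p 0.000305, Spearman's rho 0.86, permutation p 0.00011, adjusted p 0.000733, n = 15). Without the 2 tumours farthest from the median of PGK1, r was 0.94 and 0.87. EGLN3 followed PGK1 in PRE-CX (Pearson's r 0.95, permutation p 0.000124, adjusted p 0.000354, Spearman's rho 0.92, permutation p 0.00131, adjusted p 0.00309, n = 9) and did not pass in ENZR (Pearson's r -0.07, permutation p 0.814, adjusted p 0.856, Spearman's rho -0.15, permutation p 0.584, adjusted p 0.649, n = 15). Without the 2 farthest tumours its r was 0.88 and -0.13, and the difference between the groups was not tested. GPI in PRE-CX rested on 2 tumours, with r falling from 0.75 to 0.28 without them (permutation p 0.0235 with all 9). ADM passed in none of these 4 groups. The points of a group share the library scaling, so that a shift of 1 abundant gene touches both axes.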

How the data were processed

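RNA from 54 LNCaP xenografts was sequenced as stranded, poly(A)-selected libraries in paired reads. The authors aligned the reads to a combined human and mouse reference and deposited gene-level TPM, and the submitters' processing notes name FastQC 0.11.9, Trim Galore 0.6.5, STAR 2.7.2b and RSEM 1.3.3. TPM keep no read depth, so precision rests on the spread between tumours. Mouse genes are not in the table, and each tumour was rescaled to the same total of human TPM, 1000000.

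From the deposited TPM, log2(rescaled TPM + 1) was computed for the 17593 genes with at least 1 TPM in at least 8 tumours. All 54 tumours entered 1 limma fit (limma 3.58.1, R 4.3.3, mean-variance trend), with 7 comparisons and Benjamini-Hochberg adjustment over all tested genes, called at an adjusted p under 0.05. Differences are on this scale and understate those of low genes. Counts at an unadjusted p under 0.05 are a description, given without the share of all genes at that level. A second limma fit compared the distances of tumours from their group mean. Shares and relations were tested by permutation (scipy 1.17.1, Python 3.11.15) and figures drawn with matplotlib 3.10.9. The fits were tested on simulated data. The alternatives were TPM as deposited, centring on the median gene, a pseudocount of 0.1, no filter, only the 2 groups compared, tumour weights, a fold minimum and leaving out 4 tumours of low human total. Named in full were, for each role and comparison, up to 3 called members with the largest differences in a direction, both HIF alpha subunits always, and the 2 largest of each other list. The members and lists were chosen with earlier results of these data known. Each tumour came from its own mouse.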

Additional observations from a re-analysis of the deposited data

Results flagged for a closer look

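In groups of 8 to 10 tumours, the highest or lowest tumour was compared with its neighbour by Dixon's criterion, which flags about 1 in 20 groups by chance. Of 102 such tests of members, 6 passed. In PRE-CX, mouse 62 was far above the others for GPI at 577 TPM and ALDOA at 2517 TPM. In POST-CX, mouse 91 was far below the others for TPI1 at 442 TPM and GAPDH at 1094 TPM, and far above them for EGLN3 at 38.2 TPM. Its human total was 27.9%. KDM3A was far above the other POST-CX tumours in mouse 99, at 53.9 TPM.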

How the results depend on the processing

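No result changed sign while called. With the TPM as deposited, 15 members passed between POST-CX and PRE-CX, 0 between CRPC and PRE-CX, 11 between ENZS and PRE-CX and 2 between ENZS and CRPC. After centring on the median gene, 5 passed between CRPC and PRE-CX, 22 between ENZR and PRE-CX and 1 between CRPC and POST-CX. The 5 were lower, where 11% of all genes were lower and 11.6% higher. The 1 was higher, where 0.142% of all genes were higher and 0.0739% lower. Without the filter, 1 passed between CRPC and PRE-CX (SLC2A3), lower, where 2.97% of all genes were lower and 4.94% higher. Between ENZS and CRPC 3 passed without it, all higher, where 13.5% of all genes were higher and 2.63% lower. Tumour weights gave 12 between CRPC and PRE-CX and 6 between CRPC and POST-CX, and the fit of only 2 groups gave 3 in the latter. With a minimum of 1 on the log2 scale, 12, 1, 5 and 2 members passed in POST-CX, CRPC, ENZS and ENZR against PRE-CX, and 1 between ENZS and CRPC. EPAS1 was the higher member in ENZS and ENZR against PRE-CX and in ENZS against CRPC, and the rest were lower. The share of all genes at this minimum is not given here. For the spread, 1 member passed between POST-CX and PRE-CX and 1 between CRPC and PRE-CX after centring, and 1 between POST-CX and PRE-CX without the tumours of low human total. Between ENZR and PRE-CX 0 passed as deposited, 0 with a pseudocount of 0.1 and 2 without the tumours of low human total. The cause of these shifts was not tested. A pseudocount of 0.1 changed no member's call in the 7 comparisons of levels. No paired analysis was possible because each mouse number occurs in 1 group only.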

Other observations

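The 2 subunits of the mitochondrial pyruvate carrier had differences of opposite sign from PRE-CX. MPC2 lay between 278 and 570.4 TPM in PRE-CX (median 323) and between 98.2 and 212 TPM in ENZR (median 152) and fell by 1.28 in log2 units (SE 0.13, adjusted p 4.17e-11 by limma). MPC1 lay between 30.2 and 54.8 TPM in PRE-CX (median 40.96) and between 51.3 and 139 TPM in ENZR (median 74.3) and rose by 0.96 in log2 units (SE 0.14, adjusted p 2.38e-07 by limma). BPGM, which makes 2,3-bisphosphoglycerate, was among the other glycolysis genes that rose in each of the 4 comparisons with PRE-CX, which share those tumours. BPGM and ARNT2 are given here after their values were seen. BPGM rose by 0.31 in POST-CX, 0.57 in CRPC, 0.98 in ENZS and 0.78 in ENZR. ARNT2 also rose in each of the 4, by 1.05, 0.61, 1.299 and 1.13.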
